A study of Mus musculus with 10 samples.

Results

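The 8 genes described here, Trpa1, Tph1, Chga, Chgb, Slc18a1, Ddc, Lmx1a and Fev, belong to the enterochromaffin cell, the serotonin-producing endocrine cell of the gut lining. All 8 were found by name among the 35006 gene rows of the count tables, 8 of 8 passed the filter on low counts, and 13706 genes in all were tested. They had been put together with earlier results from the same libraries known, partly for their levels in one of the sorted populations, so their levels are given as a description and carry no test. Tests were made on the other genes of the pathway and of the cell type, in lists that had also been chosen with those earlier results known.

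Enterochromaffin cells take up tryptophan, hydroxylate it with tryptophan hydroxylase and decarboxylate the product to serotonin, which they load into granules and release onto nerve endings and neighbouring epithelium. The granules are packed with chromogranins. Calcium entry through stimulus-gated channels, among them the irritant receptor Trpa1, is a known trigger of release. Serotonin is then taken up by neighbouring absorptive cells and broken down by monoamine oxidases.

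The libraries came from small-intestinal crypt cells of C57BL6/J mice that carried the OSCAR reporter, a pair of fluorescent proteins, VeN90 and mCherry, expressed from the EF1a promoter at the Rosa26 locus. A germline Cre had removed the stop cassette, so that every tissue of these mice could express the reporter, in the sorted cells of all 5 groups alike. In the study's account a high OSCAR ratio marks cells with little of the elongating, Ser2-phosphorylated form of RNA polymerase II, and EF1a denotes the brightness of the reporter itself. Live EpCAM+ cells were sorted into P1 (OSCARlow EF1alow), P2 (OSCARhigh EF1alow), P3 (OSCARlow EF1ahigh), P4 (OSCARmed EF1alow) and P5 (OSCARmed EF1ahigh), with 10000 cells per library and 2 libraries per population. The gates follow fluorescence and not cell type, so each library is a mixture. The study calls the 2 libraries biological replicates, and the age of the mice was not given in the sources used here.

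The 10 libraries held 3857612 to 6485823 counts on genes, and 3 counts, taken as the floor of detection, equalled 0.298 to 1.59 CPM (counts per 1000000 counts, computed on library totals scaled by TMM factors). The libraries labelled P3 stood apart, with 59.2% and 36.1% of their counts on mitochondrial genes against 1.04% to 5.19% in the other 8. The study's text and the deposited labels do not match for P2 and P3: the text places secretory-cell markers in the gate called P3, whereas in the deposited tables they were highest in the libraries labelled P2. Populations are therefore named below strictly as labelled, and which gate the labels P2 and P3 stand for cannot be told apart here. Epcam, the surface protein used for sorting, was present in every library at 542 to 1614 CPM.

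The upstream sequences were searched for a few known motifs before the starts of the genes. RefSeq (GRCm38.p6) held 8 windows for 6 of the 8 genes, namely Tph1, Ddc, Chga, Chgb, Lmx1a and Fev, and the 250 bases before each start were searched on both strands for the ETS core CCGGAA, the homeodomain core TAATTA, the proneural E-box CAGATG, the cyclic AMP response element TGACGTCA and the TATA motif TATAAA. After the sequences had been seen, TGACGT was added, the part of the response element that lies within its full form. Of these windows 4 are printed below, 5′ to 3′ on the strand of the gene, with the matched letters in capitals. They are Chgb (chr2:132781392-132781641, plus strand), Chga (chr12:102554691-102554940, plus strand), Fev (chr1:74885409-74885658, minus strand) and the second of 2 Tph1 windows (chr7:46667378-46667627, minus strand).
Chgb: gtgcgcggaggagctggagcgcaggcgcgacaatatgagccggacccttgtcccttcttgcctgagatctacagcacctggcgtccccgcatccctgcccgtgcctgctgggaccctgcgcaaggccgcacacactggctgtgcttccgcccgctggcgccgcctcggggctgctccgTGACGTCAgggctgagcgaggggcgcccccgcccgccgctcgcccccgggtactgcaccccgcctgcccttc
Chga: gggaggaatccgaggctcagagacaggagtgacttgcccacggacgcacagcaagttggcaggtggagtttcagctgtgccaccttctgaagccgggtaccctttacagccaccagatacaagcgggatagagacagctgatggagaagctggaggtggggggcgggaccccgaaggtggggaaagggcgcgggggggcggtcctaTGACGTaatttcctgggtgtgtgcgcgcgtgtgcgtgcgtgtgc
Fev: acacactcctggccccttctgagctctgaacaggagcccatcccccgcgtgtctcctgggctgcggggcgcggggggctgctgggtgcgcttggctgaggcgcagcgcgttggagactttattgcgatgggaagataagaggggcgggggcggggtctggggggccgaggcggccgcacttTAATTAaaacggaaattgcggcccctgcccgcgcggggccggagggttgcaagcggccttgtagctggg
Tph1: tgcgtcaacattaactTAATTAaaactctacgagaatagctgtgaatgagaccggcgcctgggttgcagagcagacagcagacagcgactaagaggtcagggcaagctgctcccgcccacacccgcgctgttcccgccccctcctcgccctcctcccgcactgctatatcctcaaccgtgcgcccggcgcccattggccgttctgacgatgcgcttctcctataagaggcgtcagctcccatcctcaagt
Both granin promoters held TGACGT, the core of the cyclic AMP response element, beginning 72 bases before the start in Chgb, where it was part of the whole palindrome TGACGTCA, and 44 bases before the start in Chga. TGACGT occurred in 6.47% and TGACGTCA in 1.55% of all 32851 promoters searched. TAATTA, the core bound by LIM and other homeodomain proteins such as Lmx1a, began 69 bases before the start in Fev and 234 bases before it in Tph1, and occurred in 4.84% of all promoters. TATAAA was found once, in a Ddc window on the opposite strand (12.4% of all promoters), and CCGGAA (12% of all promoters) and CAGATG (14.4%) in none of the 8 windows. These matches are letters in a window and not measured binding sites. The Lmx1a window and the other windows of Tph1 and Ddc held no match, and no motif was found in more than 2 of the 8 windows.

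Tph1, on chromosome 7 (NCBIM37, 53902500 to 53927907, minus strand), encodes the tryptophan hydroxylase of gut endocrine cells and catalyses the rate-limiting step of serotonin synthesis. Its counts were 250 and 1089 in P2, 138 and 61 in P4, 71 and 119 in P5, 23 and 68 in P1 and 18 and 3 in P3. On the CPM scale this gave 76.2 and 242.9 in P2 (159.5 ± 117.9, SD, n = 2), 16.95 and 6.05 in P4, 8.14 and 12.6 in P5, 3.90 and 11.4 in P1 and 9.56 and 0.666 in P3. Both P2 libraries lay above all others and differed from each other 3.19-fold, and the other 4 populations overlapped one another in order of their means. The mean was 13.9-fold higher in P2 than in P4, the next population, and the fitted difference between them was 3.81 ± 0.89 (log2, SE). The neuronal isoform Tph2 had 0 counts in all 10 libraries.

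Ddc, on chromosome 11 (11714104 to 11798047, minus strand), encodes aromatic L-amino acid decarboxylase, the second enzyme of the route, which also makes dopamine and is found in absorptive cells. Its level was 419.0 and 411.7 CPM in P1 and lower elsewhere, with 145.5 and 129.5 in P3, 123.8 and 131.9 in P5, 115.7 and 105.7 in P4 and 65.5 and 184.5 in P2. The P1 libraries lay 3.02-fold above P3, the next population by mean, and the P2 libraries spanned all 6 libraries of P3, P4 and P5. The fitted difference was 1.91 ± 0.40 between P1 and P4 and 0.18 ± 0.39 between P2 and P4 (log2, SE). Ddc was thus the member whose highest level was not in P2.

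Because the 2 enzymes act in sequence, their counts were also set against each other within each library. The ratio of Ddc to Tph1 counts was 0.86 (95% exact interval 0.713 to 1.04) and 0.759 (0.693 to 0.832) in the P2 libraries. It was 6.83 and 17.5 in P4, 15.2 and 10.5 in P5, 107.5 and 36.2 in P1 and 15.2 and 194.3 in P3, the last on 3 Tph1 counts. Tph1 counts outnumbered Ddc counts in the P2 libraries and in no other library. The intervals cover counting error only, since reads carried no molecular identifiers.

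Slc18a1, on chromosome 8 (71561610 to 71613134, minus strand), encodes the vesicular monoamine transporter of endocrine cells, which loads serotonin into granules. It stood at 146.0 and 151.0 CPM in P2 (148.5 ± 3.53, SD, n = 2), the closest agreement between the P2 libraries of any member. P1 followed with 13.0 and 16.6 CPM, P5 with 12.7 and 6.99, P4 with 7.62 and 2.98 and P3 with 3.19 and 3.55. The P2 mean was 10.0-fold above that of P1, and the fitted difference between P2 and P4 was 4.82 ± 0.45 (log2, SE). Its paralog Slc18a2, the transporter of neurons and other monoamine cells, was also tested, being no member, and was higher in P2, with 28.0 and 27.2 CPM against 0.531 to 3.55 CPM in the other 8 libraries (P2 against P4, log2 difference 4.01 ± 0.61, adjusted p = 0.002, edgeR). Within P2 there were 5.21 (4.16 to 6.58) and 5.55 (4.57 to 6.79) Slc18a1 counts for each Slc18a2 count.

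Trpa1, on chromosome 1 (14862729 to 14908943, minus strand), encodes a cation channel opened by electrophilic irritants. It had 312 and 776 counts in P2, 33 and 26 in P4, 4 and 19 in P5, 3 and 0 in P1 and 0 and 0 in P3. As CPM this was 95.1 and 173.1 in P2 (134.1 ± 55.1, SD, n = 2), 4.05 and 2.58 in P4 (3.32 ± 1.04) and 0.458 and 2.01 in P5 (1.24 ± 1.10). The lower P2 library exceeded the highest of the other 8 by 23.5-fold, the widest gap of any member. P2 exceeded P4 by 40.4-fold in the mean and by 5.34 ± 0.64 in the fit (log2, SE), and exceeded P3 by at least 59.7-fold when the lower P2 library was set against a floor of 3 counts per P3 library. P4 lay above P5 without overlap, whereas P5, P1 and P3 could not be separated at these counts.

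Relative to Tph1, Trpa1 was most abundant in the P2 libraries, at 1.25 (1.05 to 1.48) and 0.713 (0.649 to 0.782) counts per Tph1 count. The ratio was 0.239 (0.158 to 0.352) and 0.426 (0.259 to 0.685) in P4 and 0.0563 (0.0149 to 0.151) and 0.160 (0.0929 to 0.260) in P5. The intervals of P2 replicate 2 and P4 replicate 2 overlapped, and those of the P5 libraries lay below both of P2. The 2 P2 libraries also differed from each other beyond counting error, so the ratio varied between replicates as well as between populations.

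Chga, on chromosome 12 (103793179 to 103803237, plus strand), and Chgb, on chromosome 2 (132607014 to 132620815, plus strand), encode chromogranins A and B, the acidic proteins that fill dense-core granules in most endocrine cells. Chga stood at 850.1 and 2287 CPM in P2, 77.5 and 49.7 in P4, 43.4 and 84.6 in P5, 37.2 and 4.89 in P3 and 16.4 and 7.36 in P1. Chgb stood at 1592 and 3673 CPM in P2, 281.7 and 196.5 in P4, 82.7 and 141.1 in P5, 101.1 and 36.8 in P1 and 23.4 and 3.55 in P3. For both, the P2 libraries lay clear of all others, with fitted differences from P4 of 4.62 ± 0.90 for Chga and 3.46 ± 0.82 for Chgb (log2, SE). P4 lay above P5 without overlap for Chgb and level with it for Chga, whose means were 63.6 and 64.0 CPM.

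The balance of the 2 granins in P4 differed from that in P2 and P5 by more than the replicates of each did, while P2 and P5 differed from each other by less. Chgb outnumbered Chga by 3.63 (3.33 to 3.98) and 3.95 (3.58 to 4.37) to 1 in P4, against 1.87 (1.79 to 1.96) and 1.61 (1.57 to 1.65) in P2 and 1.91 (1.68 to 2.16) and 1.67 (1.53 to 1.82) in P5. In P1 the ratio was 6.16 and 5.0, and in P3, on 16 to 70 counts, it was 0.629 and 0.727. The intervals of both P4 libraries lay above all intervals of P2 and P5. The intervals of the 2 P2 libraries did not overlap each other, and each overlapped at least one of P5.

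Fev and Lmx1a encode transcription factors of the enterochromaffin lineage, Fev an ETS protein that also specifies serotonin neurons and Lmx1a a LIM-homeodomain protein. Lmx1a, on chromosome 1 (169619370 to 169778872, plus strand), had 60 and 172 counts in P2, 29 and 14 in P4, 17 and 11 in P5, 4 and 2 in P1 and 1 and 0 in P3. Its CPM was 18.3 and 38.4 in P2 against 3.56 and 1.39 in P4, a log2 difference of 3.53 ± 0.67 (SE), and the lower P2 library exceeded the highest other library by 5.13-fold. The paralog Lmx1b had at most 5 counts in any library.

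Fev, on chromosome 1 (74928083 to 74931993, minus strand), was the member with the smallest gap. It had 23 and 86 counts in P2, 31 and 27 in P4, 13 and 10 in P5, 10 and 1 in P1 and 0 and 5 in P3, which gave 7.01 and 19.2 CPM in P2, 3.81 and 2.68 in P4 and 1.49 and 1.06 in P5. The lower P2 library lay 1.84-fold above the highest other library, and the fitted difference between P2 and P4 was 2.02 ± 0.85 (log2, SE). Relative to Tph1 the order of P2 and P4 was the opposite, with 0.092 (0.0573 to 0.141) and 0.079 (0.0627 to 0.0984) Fev counts per Tph1 count in P2 and 0.225 (0.147 to 0.334) and 0.443 (0.270 to 0.707) in P4. These intervals did not overlap between the 2 populations. The intervals of both P5 libraries, at 0.183 (0.0930 to 0.334) and 0.084 (0.0393 to 0.160), overlapped those of P2 and that of P4 replicate 1. P5 replicate 1 also overlapped P4 replicate 2. The ratio was 0.435 and 0.0147 in P1 and 0 and 1.67 in P3, on at most 10 Fev counts.

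**Figure D1:**
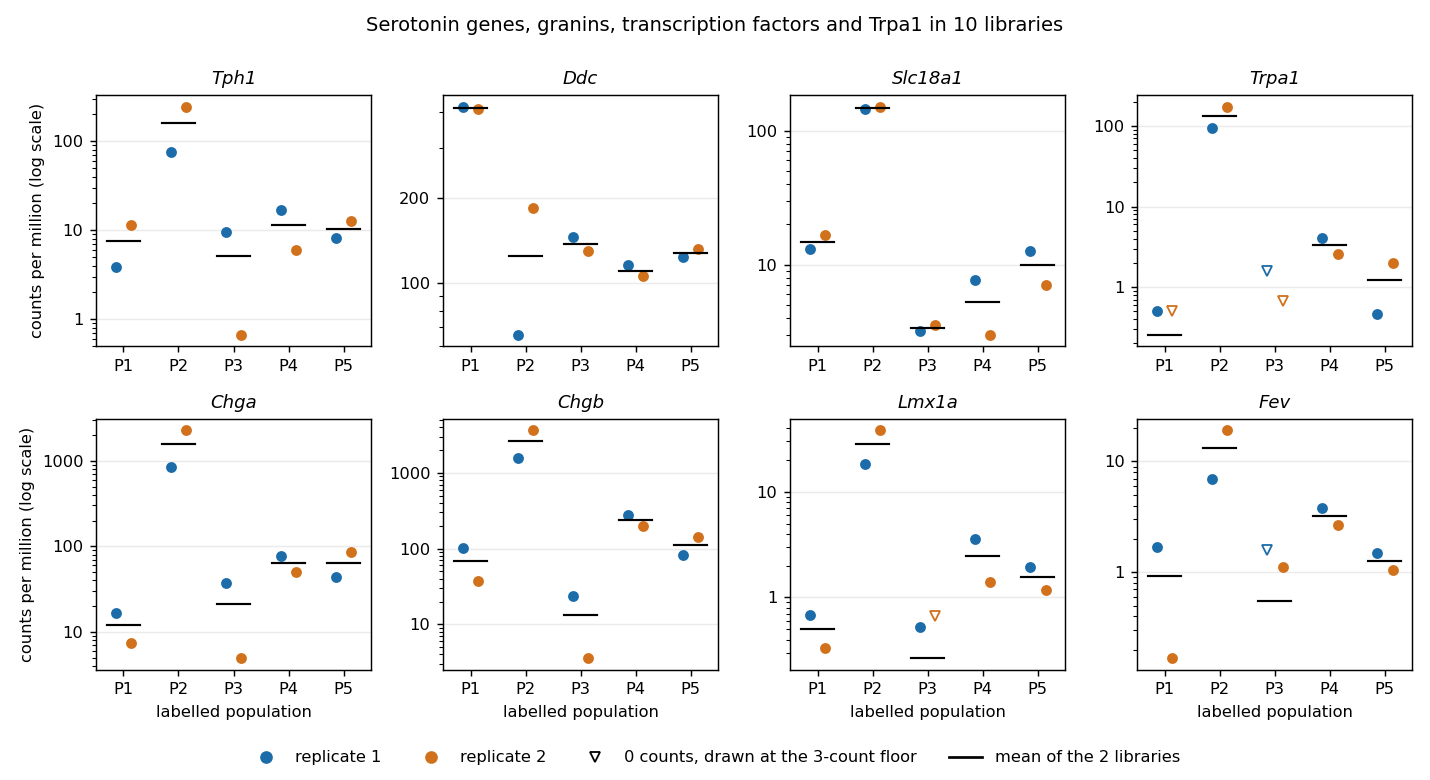
CPM (log scale, a panel per gene) in each of the 10 libraries, by labelled population. Points are libraries, bars are means of the 2 libraries with a count of 0 entered as 0, and open triangles mark 0 counts at the 3-count floor. Both P2 libraries lie above the other 8 for 7 of the 8 genes, whereas Ddc is highest in P1.

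**Figure D2:**
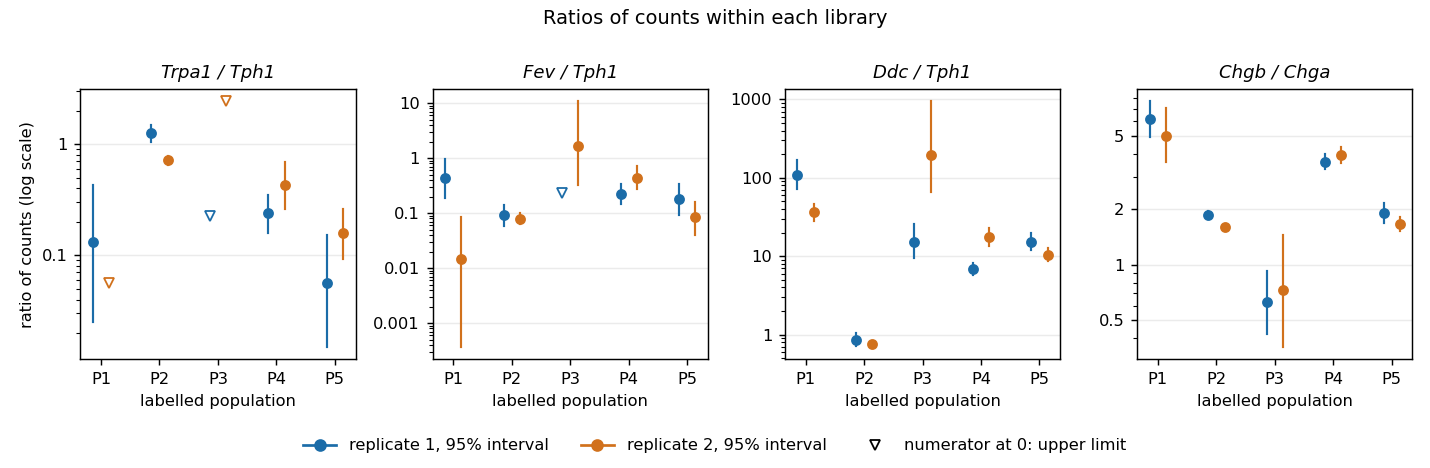
Ratio of the counts of a pair of genes within each library (log scale), with exact 95% intervals that cover counting error. Open triangles give the upper limit where the numerator had 0 counts. Ddc per Tph1 is below 1 only in the P2 libraries, Fev per Tph1 is higher in P4 than in P2, and Chgb per Chga is higher in P4 than in P2 and P5.

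Over the set, both P2 libraries lay above the other 8 for 7 of 8 members, a pattern shown by 20.2% of all genes tested. As the members had been chosen with these levels in view, nothing is read from that count. P2 replicate 2 was higher than P2 replicate 1 for all 8, from 1.03-fold for Slc18a1 to 3.19-fold for Tph1. P4 was second by mean for 5 members and P3 lowest for 6, and in a mixture of cells, fewer cells of a type and less RNA per cell cannot be told apart. P4 exceeded P5 without overlap for Trpa1, Chgb and Fev and P5 exceeded P4 for Ddc, while 31.3% of all genes had P4 and P5 libraries that did not overlap.

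Per kilobase of merged exons, which allows genes to be compared with each other, the mean P2 levels were 960.7 CPM/kb for Chgb and 833.4 for Chga. Tph1 followed with 43.3, Trpa1 with 31.5, Ddc with 28.7 and Slc18a1 with 27.5 CPM/kb. The transcription factors were lowest, with 8.35 CPM/kb for Lmx1a and 8.10 for Fev. In P1 the order was led by Ddc, with 95.4 CPM/kb, and by Chgb, with 25.2.

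The rest of the serotonin pathway was divided. Of 15 tested genes that were no members, 4 were higher and 4 lower in P2 than in the average of the other populations (adjusted p under 0.01, edgeR), where 27.0% of all tested genes were called (16.3% higher and 10.7% lower). The list's median log2 difference was -0.17, against -0.001 over all genes. Besides Slc18a2, the higher genes were Ido1, Slc7a5 and Gch1.

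Ido1, which diverts tryptophan into the kynurenine route, had 71.9 and 288.4 CPM in P2 and at most 5.61 CPM elsewhere (log2 difference from the average of the others 6.01 ± 0.64, adjusted p = 0.00012, edgeR). Slc7a5, a carrier of tryptophan and other large neutral amino acids, had 46.9 and 47.3 CPM in P2 and 18.8 to 31.4 CPM in P4 and P5 (1.90 ± 0.32, adjusted p = 0.00133). Gch1, the first enzyme of tetrahydrobiopterin synthesis and so a supplier of the hydroxylase cofactor, was called as well (1.26 ± 0.28, adjusted p = 0.00641) but was highest in P1, at 60.7 and 66.1 CPM. Its call was lost when any of 7 single libraries was left out, namely either of P1, P4 or P5 or P2 replicate 2 (adjusted p = 0.0112 to 0.265), and without both P3 libraries (adjusted p = 0.0105).

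The lower genes were Slc6a4 of serotonin uptake, Maoa and Maob of its breakdown and Spr of cofactor synthesis. For uptake, Slc22a3 and Slc29a4 were not called against the average of the others (-0.17 and 1.80, adjusted p = 0.859 and 0.191, edgeR). For breakdown, Aldh2 was not called either (-0.25, adjusted p = 0.461). Slc6a4, the serotonin reuptake transporter, had 6.10 and 12.7 CPM in P2 and 76.3 to 201.2 CPM in the other 8 libraries (-3.50 ± 0.48, adjusted p = 0.000461, edgeR). Maoa had 92.7 and 193.8 CPM in P2 against 397.4 to 2727 elsewhere (-2.70 ± 0.48, adjusted p = 0.00189), and Maob 12.8 and 32.6 against 67.2 to 518.6 (-3.04 ± 0.66, adjusted p = 0.0055). Spr, the last enzyme of tetrahydrobiopterin synthesis, fell by 1.01 ± 0.18 (adjusted p = 0.00186). Against P4 alone, Slc6a4 was also called lower (log2 difference -3.37, adjusted p = 0.00205, edgeR). Maoa, Maob and Spr were not called against P4 (adjusted p = 0.0265, 0.034 and 0.042). Of the higher genes, Slc7a5 was not called against P4 (adjusted p = 0.101), and Ido1, Slc18a2 and Gch1 were (0.00268, 0.002 and 0.00569). Without P2 replicate 1 the calls of Maoa, Maob, Spr and Slc7a5 were lost (adjusted p = 0.0244, 0.0618, 0.016 and 0.0159), without P2 replicate 2 those of Maob, Spr and Slc7a5 (0.0197, 0.0259 and 0.0159), and without P1 replicate 1 that of Maob (0.0103). Slc6a4, Slc18a2 and Ido1 kept their calls whichever library was left out. Of 9 markers of enterocytes, which take up serotonin, 3 were lower in P2 than in the average of the others and none was higher. The other 6 were not called, and over all genes 10.7% were called lower. The median log2 difference of the 9 was -2.9, against -0.001 over all genes. Against P4, 1 of the 9 was called lower, where 6.31% of all genes were. The summed level of the 9 was 1512 and 4748 CPM in P2 against 3461 to 51510 in the other libraries. The part of enterocytes in these differences was not tested.

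**Figure D3:**
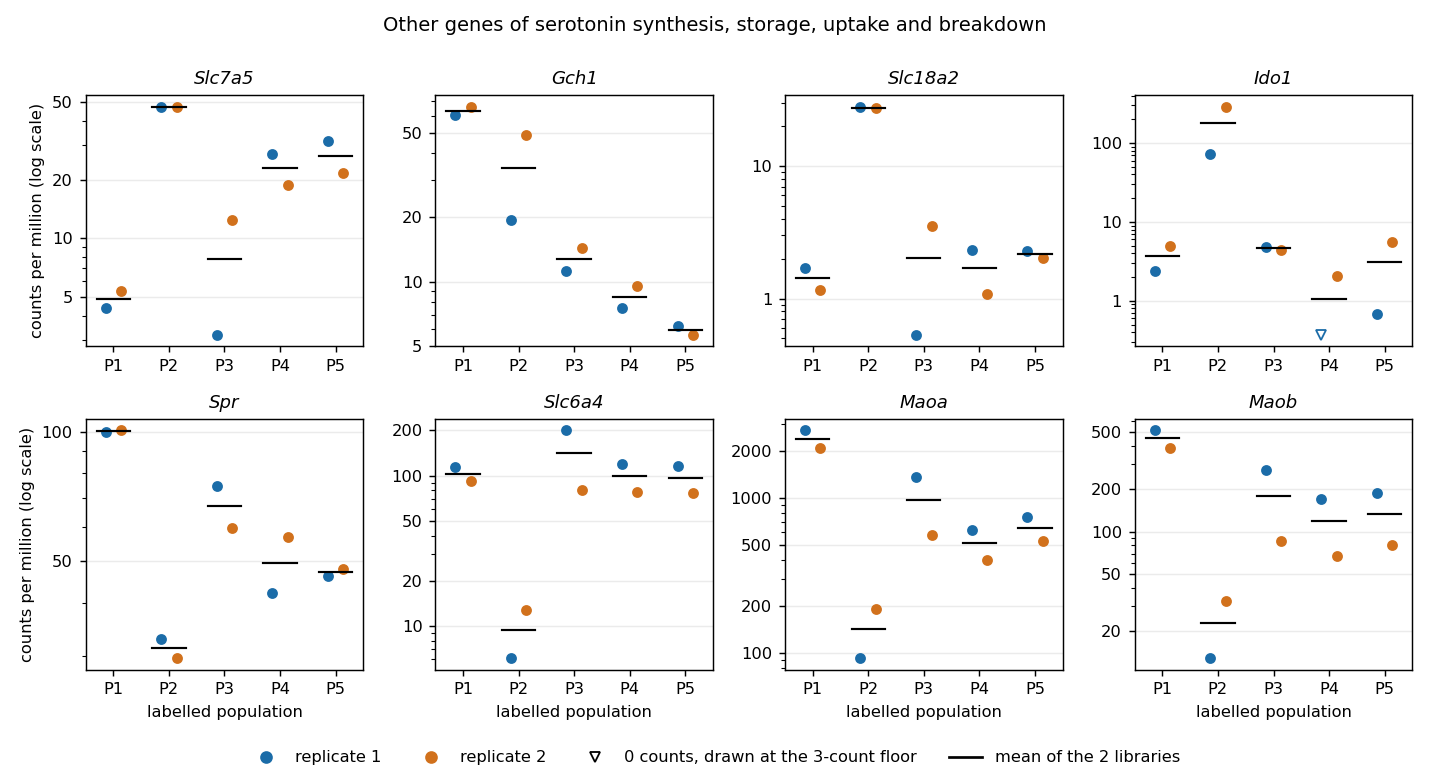
CPM (log scale, a panel per gene) of the 8 called pathway genes that are no members, by labelled population. Points are libraries, bars are means of the 2 libraries, and an open triangle marks 0 counts at the 3-count floor. Slc7a5, Slc18a2 and Ido1 are highest in the P2 libraries, Gch1 is highest in P1, and Spr, Slc6a4, Maoa and Maob are lowest in P2.

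Other genes reported in enterochromaffin cells were mostly high in P2. Of 10 tested, 9 were higher and none lower than in the average of the others, with a median log2 difference of 5.49, or 4.85 when 4 genes with a population at 0 counts were set at the 3-count floor. Over all genes 16.3% were called higher in that comparison. Fewer of the 10 were called without P2 replicate 2. Against P4, 7 of the 10 were higher, where 14.3% of all genes were called (8.0% higher and 6.31% lower). Afp, a secreted albumin relative, had 802.3 and 1467 CPM in P2 and 0.167 to 27.8 CPM elsewhere (log2 difference from P4 8.34 ± 1.70, adjusted p = 0.0066, edgeR). Ucn3, a peptide of the corticotropin-releasing family, had 34 and 128 counts in P2 and at most 8 elsewhere (5.05 ± 0.90, adjusted p = 0.00637). Gpr112, an adhesion receptor, differed by 4.31 ± 0.56 (adjusted p = 0.00136) and Slc38a11, an amino acid transporter, by 3.78 ± 0.78 (adjusted p = 0.00875).

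Among the relatives of Trpa1, the TRP channels, 9 of 21 were expressed enough to be tested. Of these, 3 were higher in P2 than in the average of the others and none was lower. Over all genes 27.0% were called (16.3% higher and 10.7% lower), and on 9 genes nothing is read from this count. Trpm2, a channel opened by ADP-ribose and oxidative stress, had 20.4 and 68.3 CPM in P2 and at most 3.78 elsewhere (log2 difference from P4 5.79 ± 0.79, adjusted p = 0.00171, edgeR). Trpm5, a taste-transduction channel of tuft cells, had 191.7 and 302.0 CPM in P2 and 4.44 to 73.3 elsewhere, and Trpc7 had 15 and 21 counts in P2 and at most 9 elsewhere. Both differed from the average of the others (adjusted p = 0.000789 and 0.00178) and neither from P4 alone (adjusted p = 0.0137 and 0.0792). The list's median log2 difference was 0.32, and without P2 replicate 2 the number of calls fell to 1. The call of Trpc7 was lost without either P2 library (adjusted p = 0.0183 and 0.0201) and that of Trpm5 without P2 replicate 2 (adjusted p = 0.0123).

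Genes of the secretory granule were higher in P2 than in the average of the others in 11 of 11 tested cases, against 16.3% of all genes. Their median log2 difference was 5.35 (5.26 with 4 genes at the floor), against -0.001 over all genes. Against P4, 7 of 11 were higher, where 8.0% of all genes were called higher. The largest differences from the average were those of Ptprn, a granule membrane protein, Resp18, Pcsk1n, an inhibitor of prohormone convertase, and Scg3, a granin-binding protein, all of which had 0 counts in both P3 libraries. With each library left out in turn, this difference ranged from 6.1 to 7.68 for Ptprn and from 6.07 to 7.64 for Resp18. It ranged from 5.22 to 7.46 for Pcsk1n and from 5.63 to 6.93 for Scg3, each lowest without P2 replicate 2. From P4, Resp18 differed by 6.27 ± 1.02 (adjusted p = 0.00342, edgeR), Ptprn by 5.33 ± 0.82 (adjusted p = 0.00268) and Scg3 by 3.85 ± 0.54 (adjusted p = 0.00182), whereas Pcsk1n, at 4.95 ± 1.11, did not pass (adjusted p = 0.0125).

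Of 18 tested transcription factors of endocrine cells other than Fev and Lmx1a, 14 were higher in P2 than in the average of the others and none lower. Over all genes 16.3% were called higher and 10.7% lower. The median log2 difference of the 18 was 3.71 (3.54 with 4 genes at the floor), against -0.001 over all genes. Against P4, 3 were higher, and without P2 replicate 2 the number called against the average fell from 14 to 8. Over all genes 8.0% were called higher in P2 than in P4. Hhex, the factor of somatostatin cells, differed from P4 by 3.50 ± 0.71 (adjusted p = 0.00804, edgeR). Runx1t1 (2.74 ± 0.62, adjusted p = 0.0132), Pax6 (2.52 ± 0.70, adjusted p = 0.0249) and Isl1 (1.83 ± 0.54, adjusted p = 0.0357) did not pass against P4. Pax6 followed Fev closely over the 10 libraries (Pearson r = 0.969, log2 CPM).

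Peptide hormones, which are made mainly by endocrine cells other than enterochromaffin cells, were higher in P2 for 8 of 8 tested genes, against 16.3% of all genes (median log2 difference of the hormones 5.14). Their summed level was 3190 and 8628 CPM in P2 and 16.7 to 366.6 CPM elsewhere. Sst, somatostatin, had 743.8 and 1803 CPM in P2 (log2 difference from P4 4.45 ± 0.56, adjusted p = 0.000943, edgeR) and Cck, cholecystokinin, 121.9 and 340.4 (3.20 ± 0.58, adjusted p = 0.00393). Gip had 1901 and 4165 CPM and Nts, neurotensin, 68.6 and 1154 CPM, and neither passed against P4 (adjusted p = 0.051 and 0.0184). Without P2 replicate 2 the number of hormones called against the average fell from 8 to 4.

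Over the 72 tested genes of the 7 lists, 49 were higher and 4 lower in P2 than in the average of the others. In that comparison 16.3% of all genes were called higher and 10.7% lower. The median log2 difference of the 72 was 3.83 (3.79 with 14 genes at the floor), against -0.001 over all genes. The number called was 51 without the P3 libraries and 32 without P2 replicate 2. Against P4, 24 were higher and 1 lower, and the number called fell from 25 to 16 and 3 when P2 replicates 1 and 2 were left out and to 5 when either P4 library was. Between P2 and P4, 8.0% of all genes were called higher and 6.31% lower. All of the 7 lists had been chosen with earlier results from these libraries known.

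**Figure D4:**
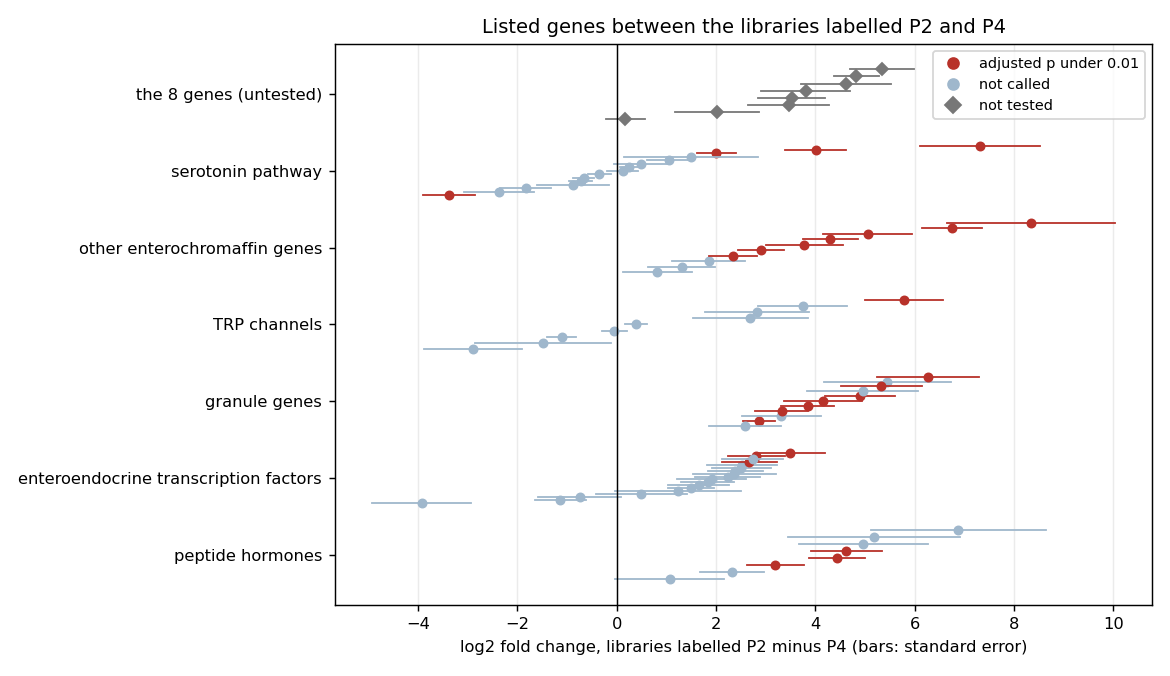
Fitted log2 fold change between the libraries labelled P2 and P4 for each listed gene, with bars of 1 standard error. Red points passed an adjusted p under 0.01, pale points did not, and diamonds are the 8 genes, which were not tested. Granule and other enterochromaffin genes lie to the right of 0, whereas serotonin pathway genes lie on both sides.

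Fewer of the listed genes were called among the other populations. Between P1 and P4, 4 of the 72 genes were higher in P1 and 8 lower, where 23.4% of all genes were called (14% higher and 9.44% lower). Without either P4 library no gene was called in that comparison, and without either P1 library 2 of the 72 were. Gch1 was higher in P1 (log2 difference 2.89 ± 0.40, adjusted p = 0.00127, edgeR), as was Maoa (2.24 ± 0.52, adjusted p = 0.0086), and Cck (-4.40 ± 0.74, adjusted p = 0.00233) and Gpr112 (-3.57 ± 0.76, adjusted p = 0.00729) were lower. Between P3 and P1, 1 of the 72 was higher and 3 were lower, where 15.6% of all genes were called (8.01% higher and 7.54% lower). Between P5 and P4, which share a medium OSCAR ratio and differ in reporter brightness, none of 13706 genes was called by edgeR (0.00%), with 350 at an unadjusted p under 0.05 (16 of the 72) and 29 called by DESeq2, of which 2 were among the 72. Between P3 and P5 none was called either, with 1587 at an unadjusted p under 0.05 (22 of the 72) and 40 called by DESeq2. The change with reporter brightness at low OSCAR (P3 and P1) differed from that at medium OSCAR (P5 and P4) for none of the 72 genes by edgeR, with 8 of them at an unadjusted p under 0.05 and 1 called by DESeq2, where 0.810% of all genes were called, and that number was 0 when any library was left out.

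Cells other than enterochromaffin cells can express some of the members, and their markers were read in the same libraries. Against the average of the other populations (edgeR), Paneth cell markers were higher in P2 in 5 of 5 cases, goblet markers in 7 of 7 and tuft markers in 7 of 8. Over all genes 16.3% were called higher. Paneth markers summed to 386400 and 268400 CPM in P2 and 347.1 to 43060 elsewhere, led by Lyz1, lysozyme (265100 and 183600 CPM), and Itln1, intelectin (91850 and 66050 CPM). Goblet markers summed to 50710 and 119200 CPM in P2 and 1911 to 10070 elsewhere, led by Fcgbp and Zg16, and tuft markers, among them Trpm5, to 666.3 and 1182 CPM in P2 and 25.8 to 245.8 elsewhere. P2 replicate 2, in which all 8 members were higher, had the higher sums for goblet, tuft and hormone genes and the lower sum for Paneth genes. The part of this mixture in the levels of the members was not tested.

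Mast cells can make serotonin through Tph1, and in both P2 libraries their defining proteases Cpa3, Mcpt1, Mcpt2 and Cma1 and the receptor chains Fcer1a and Ms4a2 had 0 counts. The tryptase Tpsb2 had 2 and 7 counts there and at most 1 in any other library. All 9 mast markers together came to 3.66 and 4.68 CPM in P2 and 0.444 to 19.7 elsewhere, most of it in P2 from Hdc, which was not called (10 and 14 counts in P2). Sensory and enteric neurons can express Trpa1 and the granins. Sox10, a defining gene of enteric glia, had 0 counts in all 10 libraries, and the 11 markers summed to 19.5 and 43.9 CPM in P2 and 0.888 to 8.72 elsewhere. Most of that was Ret, with 14.3 and 37.7 CPM in P2, which endocrine cells also express. Immune markers, led by Cd74 and Ptprc, summed to 17.1 and 72.7 CPM in P2 and 22.7 to 468.7 elsewhere, and the smallest adjusted p of 5 tested was that of Ptprc (log2 difference 2.40, adjusted p = 0.0439, edgeR). Cd3e and Cd8a had 0 counts in both P2 libraries and Lck 1 and 1, against 163 and 62, 719 and 143, and 233 and 62 in P1. Cd8a and Lck were called lower in P2 than in P1 (adjusted p = 0.0054 and 0.00625, edgeR). Ptprc was called higher in P2 without both P3 libraries (3.10, adjusted p = 0.00534) and without P3 replicate 1 (adjusted p = 0.00362), and it had 14.3 and 22.3 CPM in P2 against 112.7 and 25.8 in P1. Of the 6 stem cell markers, Lgr5 was higher in P2 than in the average of the others (log2 difference 1.49, adjusted p = 0.000526, edgeR). It was not called against P4 (-0.37, adjusted p = 0.351), whereas Ascl2, alone of the 6, was called lower in P2 than in P4 (-2.61, adjusted p = 0.0055). Against the average of the others, the remaining markers, among them Slc12a2 and Ascl2, were not called. Of these, Olfm4 (-2.12, adjusted p = 0.0341, edgeR) was called lower without both P3 libraries (-2.31, adjusted p = 0.00279) and by DESeq2 (adjusted p = 0.00053). Its difference was -2.34 without P3 replicate 1 and -1.64 without P3 replicate 2.

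The genes whose levels followed those of the members most closely were ranked by Pearson's r of log2 CPM over the 10 libraries, as a description. The P2 libraries lay above the others for Trpa1, Tph1 and Fev, and the P1 libraries for Ddc. Their weight in each r was not computed. For Trpa1 the closest genes were Pcsk1, a prohormone convertase (r = 0.988), Arg1, an arginase (0.987), Cplx1, a regulator of vesicle fusion (0.983), Fryl (0.982) and 1810043G02Rik (0.982). For Tph1 they were Scg2, a granin (0.980), Airn (0.965), Sct, secretin (0.963), Setd7 (0.963) and Dip2b (0.957). For Fev they were Dhx34 (0.975), Fgd2 (0.974), Pax6, BC018242 (0.965) and Pla2g10 (0.963).

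Ddc again went with other genes, namely Egln3, an oxygen-sensing prolyl hydroxylase (0.991), Cdc42ep2 (0.984), Trim31 (0.983), Casp8 (0.980) and Car2, a carbonic anhydrase (0.980). Among the members themselves, Trpa1 had its highest r with Lmx1a (0.963) and Chga (0.951), and a lower r with Tph1 (0.864) and Slc18a1 (0.815). The r of Ddc with Trpa1 was -0.41 and with Tph1 -0.19.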

How the data were processed

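Poly-A RNA of 10000 sorted cells per library was sequenced in 10 libraries, 2 for each of 5 populations. The values the authors deposited are raw read counts per gene, made with TopHat 2.1.0 on mm9 and HTSeq-count 0.11.2 on exons without regard to strand, so that reads with several alignments were not counted. FastQC 0.11.5 is named in the submitters' processing notes. The kit did not mark strand. Slc18a1 and Ddc overlap genes on the opposite strand, with 0 shared exonic bases in the annotation used here. Samples were grouped by their deposited labels. The 8 members and all gene lists were chosen with earlier results from these data known.

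Names were matched to GENCODE for NCBIM37 (33643 of 35006). The 206 names of ribosomal RNA genes were removed, and a row without a gene name, at most 0.00039% of a library, and the counter's summary rows were left out. Genes were filtered with filterByExpr and scaled with TMM, and a model with a mean for each of the 5 populations was fitted in edgeR 4.0.16 (R 4.3.3). Contrasts were tested by quasi-likelihood at an adjusted p of 0.01 (Benjamini-Hochberg, 13706 genes). Residual degrees of freedom were 5. P-values measure the spread between these libraries. CPM used TMM-scaled totals, and correlations a prior count of 2. Standard errors were derived from the F statistics. The fit was tested on simulated data. Alternatives used the size factors and test of DESeq2 1.42.0, no filter on low counts, a threshold of 0.05, a replicate block, retained rRNA, removed mitochondrial genes and each library left out. The removal of both P3 libraries was added after the data had been seen. Figures were drawn with matplotlib 3.10.9.

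Genes were named by a rule. It takes the 8 members, the called genes with the largest change in P2 against the average of the others (up to 4 per direction and list), the paralogs Tph2, Slc18a2 and Lmx1b, the 2 most abundant genes of each cell type list and the 5 genes most like Trpa1, Tph1, Ddc and Fev. Marker genes at 0 counts, Lgr5, Ascl2, Tpsb2, Cd3e, Cd8a, Lck, Epcam, Aldh2, Slc22a3, Slc29a4, Neurog3 and Htr4 were named after their values had been seen. Piezo2 and Asmt were not analysed here, and some marker genes are not reported here.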

Additional observations from a re-analysis of the deposited data

Results flagged for a closer look

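Ddc was flagged because its EF1ahigh and EF1alow libraries did not overlap at either OSCAR level, in opposite directions. Over all genes, 61.3% had P3 and P1 libraries that did not overlap, and 31.3% had such P5 and P4 libraries. At low OSCAR, the EF1ahigh libraries (P3, 145.5 and 129.5 CPM) lay below the EF1alow libraries (P1, 419.0 and 411.7 CPM). At medium OSCAR, the EF1ahigh libraries (P5, 123.8 and 131.9 CPM) lay above the EF1alow libraries (P4, 115.7 and 105.7 CPM). The fitted change was -1.60 ± 0.396 at low OSCAR and 0.208 ± 0.385 at medium OSCAR (log2, SE). At medium OSCAR it was thus smaller than its SE, and a reversal is not shown by the fit. The log2 change at low OSCAR minus that at medium OSCAR was -1.80, and this difference was not tested, since Ddc had been chosen on its levels. Which gate the labels P2 and P3 stand for cannot be told apart, so the first of these changes rests on the labels. The libraries labelled P2 (65.5 and 184.5 CPM) lay below P1 as well. The P3 libraries had mitochondrial shares of 59.2% and 36.1%, and the part of these in the value was not tested. Over all genes, 111 of 13706 (0.810%) were called for the same difference of differences, none of them among the 72 listed genes (8 of which had an unadjusted p under 0.05, and 1 of which DESeq2 called).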

How the results depend on the processing

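Over the settings that kept all libraries or left out both P3 libraries, 55 of the member values stayed within the spread between replicates, and Trpa1 alone moved, from 8.43 to 7.01 (log2, P2 against the average of the others) without the P3 libraries, which had no Trpa1 count. Of the named list genes, 309 comparisons kept their side of the threshold, 18 passed it newly and 1 (Gch1) no longer passed. With each library left out in turn, the log2 difference ranged from 7.93 to 9.36 for Trpa1, from -1.37 to 0.12 for Ddc, from 4.53 to 6 for Lmx1a and from 2.42 to 4.63 for Fev. Ddc turned positive without P2 replicate 1.

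Without a filter on low counts, 3500 genes were called between P2 and P4, 5026 between P1 and P4, 194 between P5 and P4, 4005 between P3 and P1, 302 between P3 and P5, 4439 between P2 and P3 and 2298 for the difference of differences. Of the listed genes these held 50, 35, 10, 16, 21 and, for the difference of differences, 10, and in P2 against the average 6 TRP channels and 1 receptor, Htr4. DESeq2's test called 3192, 29, 3559, 40 and 1975 genes for P2 and P4, P5 and P4, P3 and P1, P3 and P5 and the difference of differences, with 40, 2, 8, 1 and 1 listed genes. At a threshold of 0.05, 5705 genes were called in P2 against the average, 6462 between P2 and P1, 3987 between P2 and P4, 5777 between P1 and P4, 4652 between P3 and P1, 1 between P3 and P5, 5114 between P2 and P3 and 2370 for the difference of differences. Listed genes were 47 (P2 and P4), 21 (P1 and P4), 9 (P3 and P1), 2 (difference of differences) and 1 receptor. The difference of differences had 362 calls with DESeq2's size factors and 375 without mitochondrial genes, with 1 listed gene each. Htr4 was also called without the P3 libraries, as 1 receptor. The cause of these changes was not tested.

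The labels do not tie replicate numbers to a shared animal or day. The differences between replicates 1 and 2 correlated between populations at -0.0598 to 0.554, so some deviations were shared, without being shared by every pair, and 2 numbers do not settle a pairing. In a fit with a replicate block, 1 gene was called between P5 and P4, 4 between P3 and P5 and 593 for the difference of differences (1 listed gene), with 1 receptor (Htr4) in P2 against the average, and Cd74 (-2.76, adjusted p = 0.00031, edgeR) and Ptprc (2.98, adjusted p = 0.00622) were called.

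Leaving out each library in turn gave 1708 to 4458 calls for P2 against the average, 1576 to 5046 for P2 and P1, 320 to 2763 for P2 and P4, 0 to 4412 for P1 and P4, 0 to 2126 for P3 and P1, 0 to 1 for P3 and P5, 1348 to 2605 for P2 and P3 and 0 in every case for the difference of differences. Listed genes ranged over 32 to 54, 23 to 50, 3 to 36 and 0 to 15 in the first 4 of these, 0 to 4 for P3 and P1 and 23 to 42 for P2 and P3. Per list, P2 against the average gave 4 to 8 serotonin pathway genes, 1 to 4 TRP channels, 8 to 14 transcription factors and 4 to 8 hormones. A population left with 1 library was assumed to vary like the others. Members with few counts, such as Fev and Trpa1 in P1 and P3, could not be ordered at this depth.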

Other observations

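Some listed genes had higher means in P4 and P5 than in the other populations, and Neurog3 and Htr4 are named from among them after their values had been seen. Neurog3, the factor that starts endocrine differentiation, had 120 and 120 counts in P4, 32 and 36 in P5, 4 and 3 in P1, 0 and 7 in P2 and 0 and 11 in P3. Its log2 difference was -4.45 ± 1.01 between P1 and P4 (adjusted p = 0.00764, edgeR) and -3.92 ± 1.0 between P2 and P4 (adjusted p = 0.0182).

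Htr4, a serotonin receptor and the 1 of 14 receptor genes expressed enough to be tested, had 34 and 105 counts in P4, 45 and 100 in P5, 7 and 10 in P1, 0 and 2 in P2 and 0 and 8 in P3. Against the average of the others, P2 was not called different (log2 difference -3.52 ± 1.11, adjusted p = 0.0306, edgeR), and it was called without both P3 libraries.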
